A study of Sus scrofa with 9 samples.

Results

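Ribosome biogenesis and nucleolar genes were followed in porcine valvular interstitial cells (PVICs), the cells that maintain the aortic valve leaflet. The set holds 52 genes chosen by name for their role, with earlier results of these data known. All 52 were found by symbol among the 19535 genes of the count table. They comprise MYC, 6 genes of RNA polymerase I and its cofactors, 5 nucleolar chaperones and scaffolds, 3 proteins of box C/D and 4 of box H/ACA small nucleolar ribonucleoproteins (snoRNPs), 18 small subunit factors and 15 large subunit factors. Every member passed the filter on low counts and was tested. The lowest count of any member in any library was 176, for LYAR.

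RNA was sequenced from 9 PVIC libraries, 3 in each of 3 groups. All cells were wild-type primary cells from pigs of 4 to 5 months, taken from leaflets whose surface endothelium had been scraped away. The control group was kept in DMEM. The OIM group received osteogenic induction medium with ascorbic acid (50 µg/mL), sodium dihydrogen phosphate (2 mmol/L) and insulin, which is used to drive calcium deposition. The bFGF group received the same OIM together with 50 ng/mL basic fibroblast growth factor, so the bFGF and OIM groups shared the medium and differed in the growth factor. The labels give 3 days of treatment, whereas the methods of the study give 48 hours before RNA extraction. How many animals or cultures the libraries came from is not stated, so p-values measure only the spread between these libraries.

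Ribosomes are assembled in the nucleolus, around the ribosomal RNA precursor that RNA polymerase I transcribes. Box C/D snoRNPs guide ribose methylation of that precursor and box H/ACA snoRNPs guide pseudouridylation. Separate sets of factors then cut, fold and export the small and the large subunit. MYC is a transcription factor, induced by growth factors in many cells, that is known to activate many of these genes through the E-box sequence CACGTG together with its partner MAX.

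Total gene counts ranged from 57075793 to 64723837 in control, from 57682710 to 67371523 in OIM and from 46773376 to 48270827 in bFGF. OIM replicate 2 stood apart from the other OIM libraries, with a mean chi-square per gene of 18.7 and 18.8 against them. The other pairs of replicates gave 4.62 to 11.4. Interstitial and fibroblast markers were present in all libraries (12 of 12 genes, with the lowest level at 4.08 CPM for TCF21). Their summed level was 80681 to 87040 CPM (a gene's counts scaled to a common library size) in control, 77983 to 81074 in OIM and 49485 to 50501 in bFGF. In bFGF against OIM 3 of the 12 were called higher (VIM, POSTN and TCF21) and 5 lower, among them the abundant matrix genes COL1A1, COL1A2, COL3A1 and FN1. With library totals alone, without a correction for composition, 3 were called higher and 3 lower. Endothelial markers, 10 genes, summed to 22.1 to 24.9 CPM in control, 22.3 to 24.2 in OIM and 37.2 to 40.2 in bFGF. In bFGF against OIM 6 of 10 were called higher and 0 lower, beside 17.7% and 18.4% of all genes. PECAM1 had the highest level, at 11.8 CPM in OIM and 20.7 in bFGF. The log2 fold change was above 0 for 8 of the 10 and lowest for VWF, at -0.43. KDR was at 0 in at least 1 library. Leukocyte markers, 10 genes, summed to 16.6 to 20.03 CPM in control, 17.5 to 18.7 in OIM and 11.4 to 12.4 in bFGF, and CD3E was at 0 in every library. Of the 7 that were tested, 2 were called lower and 0 higher in bFGF against OIM, or 1 lower with library totals alone. The part of these other cell types in the results was not tested. In RNA from whole cultures, fewer cells of a type and less RNA per cell cannot be told apart.

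The E-box is shown first, because it is the sequence through which MYC and MAX bind DNA. Promoter windows ran from 250 bases before to 50 bases after each annotated gene start (RefSeq, Sscrofa11.1), and CACGTG, which reads the same on both strands, was searched in each. It was found in 10 of 52 members (19.2%) and in 1548 of 19531 protein-coding genes (7.93%). The share was 16.2% in 37 other small subunit factors, 14.0% in 43 other large subunit factors and 7.69% in 78 cytosolic ribosomal protein genes. The windows of UTP20, MRTO4 and WDR75, which were called higher in bFGF, and of NOP10, which was not, are given with the motif in capitals and 10 bases on each side, written 5′ to 3′ on the strand of the gene. The UTP20 window is chr5:82913169-82913194 on the minus strand, and its motif begins 8 bases before the gene start. The MRTO4 window is chr6:77747815-77747840 on the plus strand and begins within the gene. The WDR75 window is chr15:93980885-93980910 on the plus strand, with the motif 159 bases before the start. The NOP10 window is chr7:80160894-80160919 on the plus strand, with the motif 120 bases before the start.
UTP20: ttcttcctccCACGTGacccgctcag
MRTO4: ccttccgccgCACGTGgctgcgacgc
WDR75: gaccggtggtCACGTGacacagtttg
NOP10: gggcacactcCACGTGtctcataacg
These matches are letters in a window and say nothing of binding in these cells.

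The main comparison asked how the members differed when bFGF was present in the osteogenic medium. A call needed a log2 fold change of 0.5 or more in size together with an adjusted p no higher than 0.05 in edgeR's quasi-likelihood test. Genes said to rise or fall in this comparison were called higher or lower. In bFGF against OIM, 39 of 52 members (75%) were called higher and 0 lower, where 17.7% of all 13662 genes tested were called higher and 18.4% lower. With the adjusted p alone, 51 members (98.1%) were higher and 0 lower, against 33.8% of all genes higher and 33.5% lower. All 52 log2 fold changes were above 0, against 49.8% of all genes. The median was 0.67 in the members and -0.0029 over all genes. The 3 bFGF libraries lay above the 3 OIM libraries for 51 members, a pattern found for 36.3% of all genes, and NOP10 was the exception. None lay wholly below, against 35.8% of all genes. Without a composition correction (library totals alone) 49 members and 27.3% of all genes were called higher, and the higher share of calls over all genes moved from 49.0% to 68.8%. Without OIM replicate 2, 42 members and 18.6% of all genes were called higher.

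**Figure D1:**
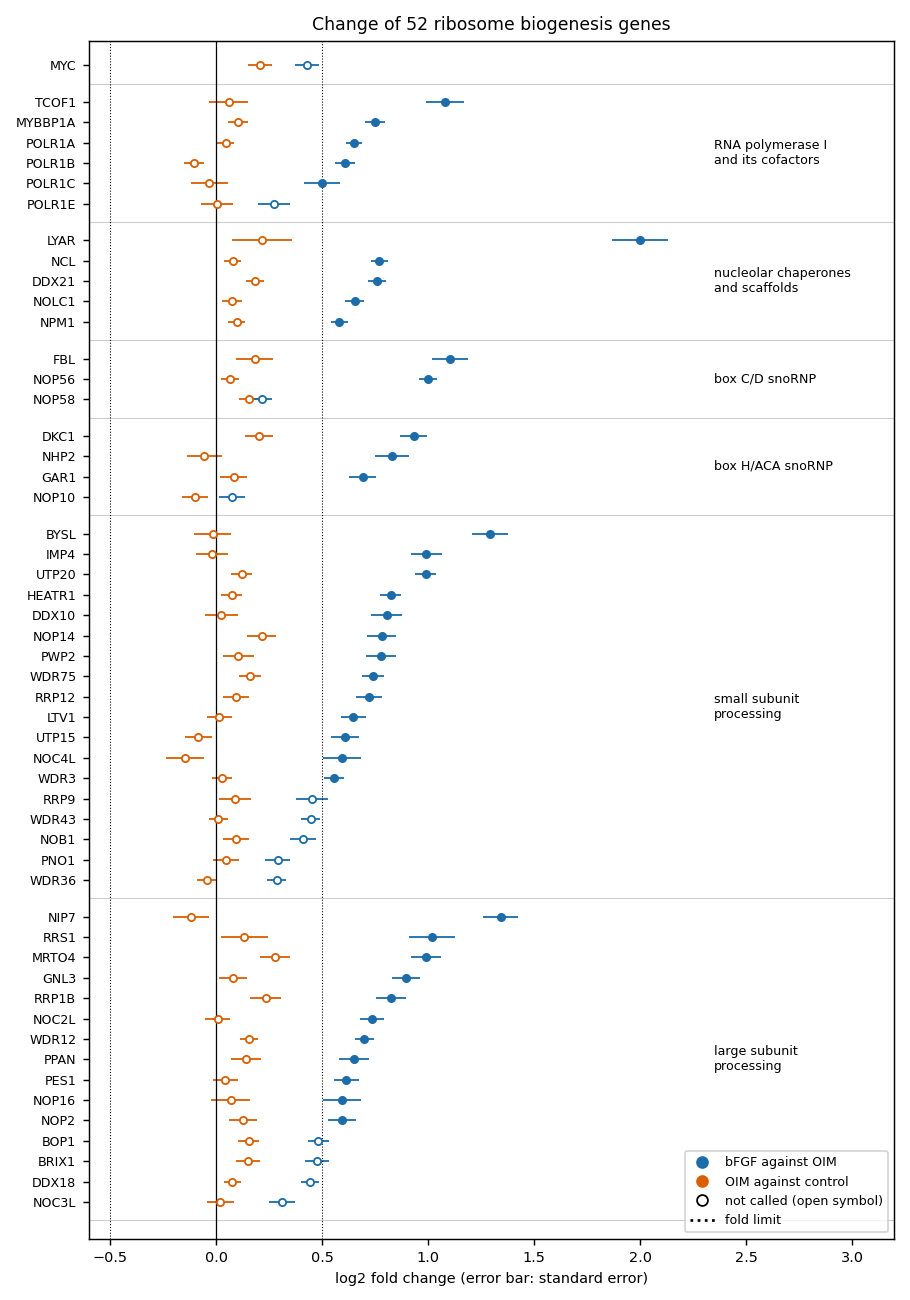
Log2 fold change of each of the 52 members in bFGF against OIM and in OIM against control, arranged by role. Standard errors were derived from the F statistic of the test. All 52 values in bFGF against OIM lie above 0, from 0.07 for NOP10 to 2.00 for LYAR, and those in OIM against control lie between -0.15 for NOC4L and 0.28 for MRTO4.

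MYC, on chromosome 4 from 12455141 to 12460360, was at 47.7, 46.9 and 46.0 CPM in the control libraries, at 53.2, 57.9 and 51.0 in OIM and at 68.5, 79.3 and 70.8 in bFGF. No library of one group overlapped another group, with control lowest and bFGF highest. The difference in bFGF against OIM was 0.43 on the log2 scale (SE 0.057, edgeR adjusted p = 1.37e-06), which is under the fold limit, so MYC was not called. In bFGF against control it was 0.64 (adjusted p = 5.02e-09) and MYC was called. MYC was called in bFGF against OIM when OIM replicate 2 was left out (0.50) and with library totals alone.

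Among the 6 genes of RNA polymerase I and its cofactors, 5 were called higher in bFGF against OIM, beside 17.7% of all genes. Their median was 0.63. TCOF1 encodes treacle, a nucleolar protein that supports transcription of ribosomal DNA (chromosome 2, 151368264 to 151401029). It was at 16.2, 14.7 and 14.6 CPM in control, 14.5, 18.4 and 14.4 in OIM, and 32.1, 31.9 and 36.3 in bFGF. The bFGF libraries were all above the others, while control and OIM overlapped, and the log2 fold change was 1.08 (SE 0.090, adjusted p = 1.53e-09). The catalytic subunits POLR1A and POLR1B rose by 0.65 and 0.61, and MYBBP1A, a nucleolar regulator, by 0.75. POLR1C, a subunit shared with RNA polymerase III, lay at the edge of the call with 0.50, and was called in 3 of 9 fits that each left out a library. POLR1E, another polymerase subunit (chromosome 1, 238197659 to 238219475), was at 15.6, 18.3 and 17.3 CPM in OIM and 21.1, 19.5 and 21.3 in bFGF, a log2 difference of 0.27 (SE 0.075, adjusted p = 0.00329) that is under the fold limit. Its control libraries held 16.5, 17.2 and 17.4 CPM.

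All 5 nucleolar chaperones and scaffolds were called higher, beside 17.7% of all genes, with a median of 0.76. LYAR, a nucleolar zinc finger protein (chromosome 8, 6081332 to 6099861), was at 3.34, 2.99 and 3.77 CPM in control, 3.25, 4.62 and 3.83 in OIM and 15.1, 17.5 and 14.4 in bFGF. Its log2 fold change of 2.00 (SE 0.13, adjusted p = 4.41e-11) was the largest of the members, and the lowest bFGF library was above every other library. NPM1, or nucleophosmin (chromosome 16, 52767263 to 52781862), had the smallest change of these 5, with 374, 333 and 358 CPM in control, 370, 388 and 382 in OIM and 569, 565 and 574 in bFGF. That is a log2 fold change of 0.58 (SE 0.039, adjusted p = 5.61e-11), from an abundant gene with little spread in bFGF. Nucleolin (NCL) rose by 0.77, the RNA helicase DDX21 by 0.76 and the snoRNP chaperone NOLC1 by 0.66.

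**Figure D2:**
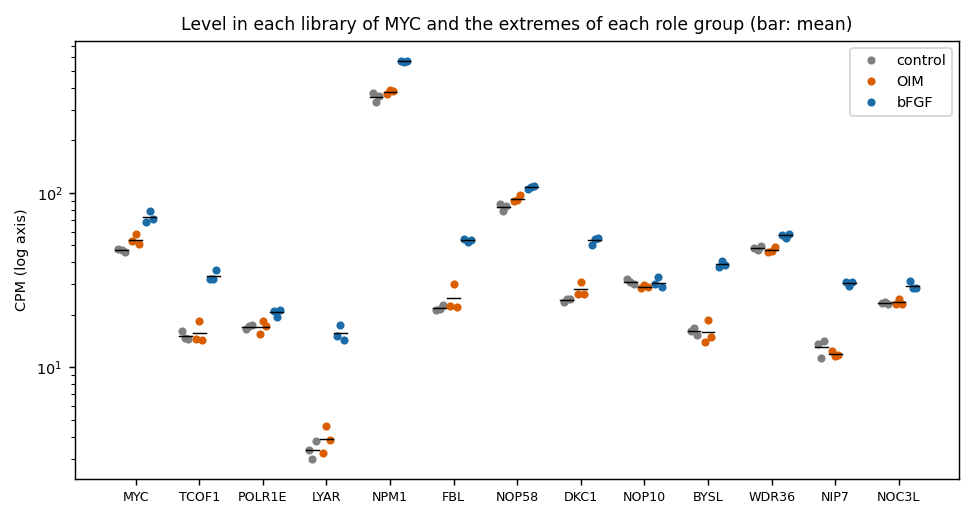
CPM in each of the 9 libraries for MYC and for the members with the largest and smallest change in each role group, on a log axis. The bFGF points of LYAR lie between 14.4 and 17.5 CPM, above all its other points, while those of NOP10, from 28.8 to 33.0 CPM, overlap the control and OIM points.

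The core proteins of the snoRNPs had log2 fold changes from 0.07 to 1.10, and 5 of 7 were called higher, beside 17.7% of all genes. In the box C/D class, fibrillarin (FBL), the methyltransferase (chromosome 6, 48314782 to 48326433), was at 21.3, 21.6 and 22.8 CPM in control, 22.4, 30.0 and 22.2 in OIM and 54.3, 52.5 and 53.7 in bFGF. It rose by 1.10 on the log2 scale (SE 0.085, adjusted p = 4.63e-10), and NOP56 rose by 1.002. NOP58, the paired core protein (chromosome 15, 105893589 to 105930458), was at 86.8, 79.1 and 83.9 CPM in control, 90.2, 90.8 and 96.9 in OIM and 105, 108 and 110 in bFGF. Its difference of 0.22 (SE 0.044, adjusted p = 0.000192) stayed under the fold limit although the groups did not overlap.

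In the box H/ACA class, DKC1, or dyskerin, the pseudouridine synthase (chromosome X, 125218928 to 125228881), was at 23.7, 24.5 and 24.7 CPM in control, 26.5, 31.1 and 26.4 in OIM and 50.2, 54.7 and 55.3 in bFGF. It rose by 0.93 (SE 0.065, adjusted p = 1.15e-10), and its partners NHP2 and GAR1 rose by 0.83 and 0.69. NOP10, the smallest of the core proteins (chromosome 7, 80161024 to 80162299), was at 32.2, 30.7 and 30.2 CPM in control, 28.6, 29.7 and 28.8 in OIM and 29.9, 33.0 and 28.8 in bFGF. The OIM and bFGF libraries overlapped, and the difference of 0.07 (SE 0.062, adjusted p = 0.297) was the only one of the 52 that did not pass the adjusted p.

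Because the partners of a complex were measured in the same library, their counts were also set against each other as ratios, without correction for exon length. The pairs were chosen after the values had been seen, and the ratios are given without a test. DKC1 to NOP10 was 0.785 ± 0.0426 in control, 0.963 ± 0.0728 in OIM and 1.75 ± 0.146 in bFGF (means ± SD, n = 3). GAR1 to NOP10 was 0.687 ± 0.0242, 0.779 ± 0.0346 and 1.20 ± 0.101 in the same order, and NHP2 to NOP10 0.507 ± 0.0371, 0.520 ± 0.0311 and 0.882 ± 0.0890. NOP56 to NOP58 was 0.797 ± 0.0555, 0.7498 ± 0.0376 and 1.29 ± 0.0479, and FBL to NOP58 was 0.264 ± 0.0156, 0.269 ± 0.0537 and 0.496 ± 0.0161. In all 5 ratios, the lowest bFGF library lay above the highest library of the other groups.

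**Figure D3:**
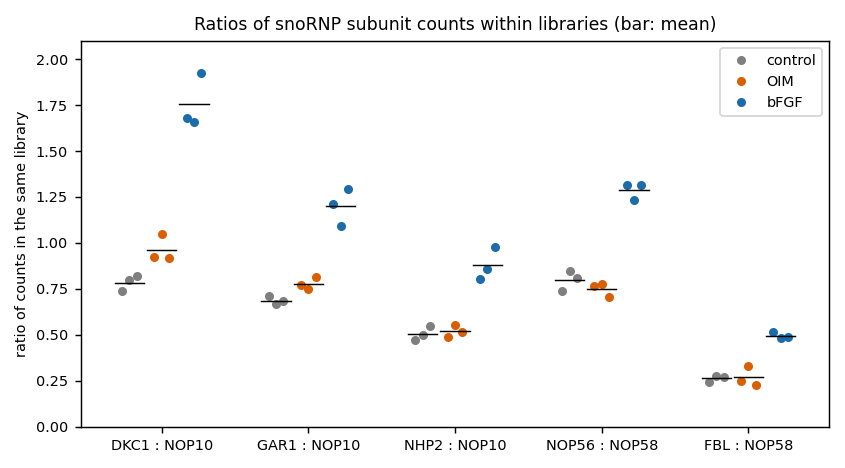
Ratio of counts, not corrected for exon length, for 5 pairs of snoRNP core proteins in each library, with group means. In every pair the bFGF points are above those of control and OIM, as for DKC1 to NOP10, with a mean of 1.75 in bFGF and 0.963 in OIM.

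Of the 18 small subunit factors, 13 (72.2%) were called higher, beside 17.7% of all genes, and the median was 0.68. BYSL, or bystin, acts in late assembly of the small subunit (chromosome 7, 37074517 to 37086753). It was at 16.1, 16.7 and 15.4 CPM in control, 14.1, 18.7 and 14.8 in OIM and 37.6, 40.8 and 38.4 in bFGF. Its bFGF libraries stood apart from all others, and the log2 fold change was 1.29 (SE 0.086, adjusted p = 4.96e-11). UTP20 and IMP4, of the processome that forms on the precursor, both rose by 0.99. HEATR1 rose by 0.82, DDX10 by 0.80 and NOP14 and PWP2 by 0.78. WDR75 rose by 0.74 and RRP12, an export factor, by 0.72.

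The other small subunit factors that rose were LTV1 (0.65), UTP15 (0.61), NOC4L (0.60) and WDR3 (0.56). The 5 that were not called all passed the adjusted p and had log2 fold changes of 0.45 for RRP9, 0.45 for WDR43, 0.41 for NOB1, 0.29 for PNO1 and 0.29 for WDR36. NOB1, the nuclease that makes the end of 18S rRNA, and its partner PNO1 were thus both below the limit. WDR36 (chromosome 2, 115835099 to 115907643) was at 48.5, 47.3 and 49.4 CPM in control, 45.6, 46.5 and 48.7 in OIM and 57.7, 55.5 and 58.4 in bFGF, so bFGF was higher than either group by a small step (SE 0.047, adjusted p = 2.12e-05).

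Of the 15 large subunit factors, 11 (73.3%) were called higher, beside 17.7% of all genes, and the median was 0.65. NIP7, a factor for 60S maturation (chromosome 6, 17642092 to 17645404), was at 13.5, 11.3 and 14.2 CPM in control, 12.5, 11.6 and 11.8 in OIM and 31.0, 29.1 and 31.0 in bFGF. Its log2 fold change was 1.34 (SE 0.082, adjusted p = 1.38e-11), with no overlap. RRS1 rose by 1.02, MRTO4 by 0.99, GNL3 (nucleostemin) by 0.90, RRP1B by 0.83 and NOC2L by 0.74. WDR12 and PES1, which form a complex with BOP1, rose by 0.70 and 0.61, and BOP1 had 0.48 (adjusted p = 3.62e-08), just under the fold limit, with no overlap between bFGF and OIM. The difference between the 3 genes was not tested.

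PPAN rose by 0.65, NOP16 by 0.60 and NOP2, an rRNA methyltransferase, by 0.59. BRIX1 (0.48), DDX18 (0.44) and NOC3L (0.31) passed the adjusted p and were not called. NOC3L (chromosome 14, 105766299 to 105806368) was at 23.3, 23.7 and 23.0 CPM in control, 23.1, 24.7 and 23.1 in OIM and 31.2, 28.4 and 28.4 in bFGF (SE 0.063, adjusted p = 0.000205). Its control and OIM libraries overlapped and bFGF lay above both. Of all 52 members, 7 had a log2 fold change of at least 1, 32 lay from 0.5 to under 1 and 13 were below 0.5.

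The levels per kilobase of exon spread widely over the members in every group. In control, NPM1 (136 CPM per kb), NCL (113), DDX21 (37.0), NOP10 (31.7) and NOP56 (25.8) were the highest, and TCOF1 (2.44), NOP16 (2.39) and LYAR (2.14) the lowest. LYAR reached 9.98 CPM per kb in bFGF. Taken as a share of all gene counts, the 52 members held 0.229% to 0.239% in control, 0.242% to 0.265% in OIM and 0.462% to 0.477% in bFGF.

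Osteogenic medium alone was then compared with control. Of the 52 members, 0 were called in either direction, where 1.49% of all genes were called higher and 0.864% lower. With edgeR's adjusted p alone, 9 members were higher and 0 lower (17.3%, against 7.69% of all genes higher and 5.87% lower), all below the fold limit. These were MRTO4 (0.28), RRP1B (0.23), NOP14 (0.22), MYC (0.21), DDX21 (0.18), WDR75 (0.16), WDR12 (0.16), BOP1 (0.15) and NOP58 (0.15). This count of 9 fell to 4 without control replicate 2 or 3, to 5 without OIM replicate 2 or bFGF replicate 1, and to 4 in a fit of the 2 groups alone.

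The members' median in OIM against control was 0.08 (-0.0019 over all genes), or 0.05 without OIM replicate 2, and 42 of 52 were above 0, against 49.6% of all genes. OIM lay above control without overlap in 18 members (14.5% of all genes) and below it in 1, NOP10 (14.2% of all genes). DESeq2 also called 0 members, with 10 higher by the adjusted p alone. The median of the members relative to the control mean was 0.05, 0.13 and 0.04 in the 3 OIM libraries on the log2 scale, highest in OIM replicate 2, and 0.70, 0.78 and 0.80 in the bFGF libraries.

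**Figure D4:**
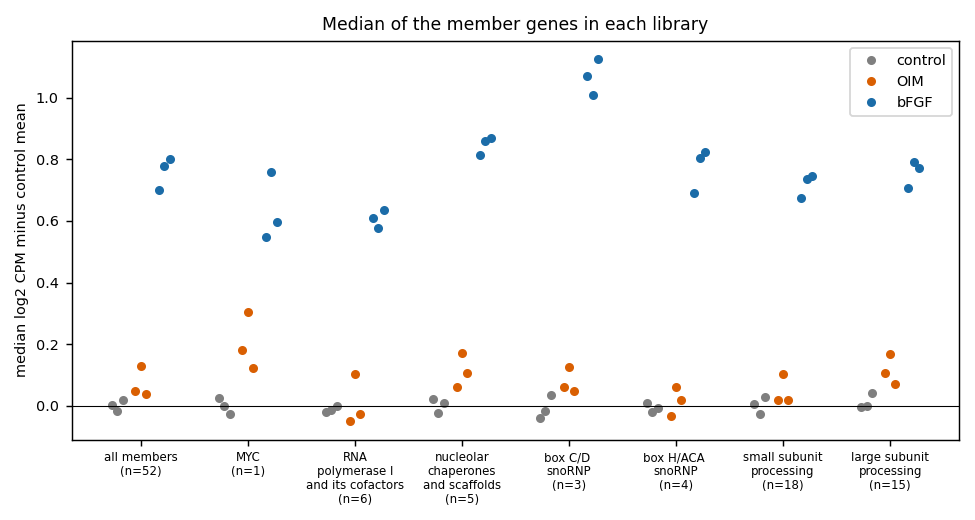
Median log2 level of the members, and of each role group, relative to the control mean in every library. For all members the bFGF libraries lie between 0.70 and 0.80 and the OIM libraries between 0.04 and 0.13.

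In bFGF against control, which shares its libraries with both other comparisons, 43 members were called higher and 0 lower, where 18.9% of all genes were called higher and 20% lower. With edgeR's adjusted p alone, 51 members were higher and 0 lower, against 34.5% and 35.7% of all genes. The bFGF libraries lay wholly above control for 51 members (36.4% of all genes) and wholly below for 0 (37.3%). The median was 0.76. POLR1C, POLR1E, NOP58, NOP10, NOC4L, WDR43, WDR36, PNO1 and NOC3L were the 9 not called. NOP10 was the lowest at -0.02 (edgeR adjusted p = 0.747), a direction that turned to 0.20 with library totals alone. That scaling moved the median of all genes from -0.016 to 0.21. LYAR was again the largest, at 2.22.

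Other genes of the same pathway were read as lists, by counts and medians. Of 37 other small subunit factors, 16 (43.2%) rose and 0 fell in bFGF against OIM, with a median of 0.45, where 17.7% of all genes were called higher and 18.4% lower. Of 43 other large subunit factors, 16 (37.2%) rose and 0 fell (median 0.38). Of 17 other RNA polymerase I genes 4 (23.5%) rose and 0 fell (median 0.26), and 13 (76.5%) were higher with edgeR's adjusted p alone, against 33.8% of all genes. Examples were NAT10 (0.89), an rRNA acetyltransferase, AATF (0.89), URB1 (1.05), EBNA1BP2 (0.84) and the shared polymerase subunits POLR2L (0.86) and POLR2F (0.74). Of 15 genes of the RNA exosome and trimming, 6 (40%) rose and 0 fell (median 0.34), led by EXOSC2 (1.23) and EXOSC6 (1.19). Among 12 snoRNP assembly factors 3 (25%) rose, RUVBL1 (0.80) and NAF1 (0.64) among them, and ZNHIT6, a box C/D assembly factor, fell by 0.87. With the adjusted p alone, 10 of the 12 (83.3%) were higher and 1 was lower. With library totals alone these 5 lists gained calls (31 of 37, 28 of 43, 7 of 17, 10 of 15 and 9 of 12 higher), where 27.3% of all genes were called higher. Their medians were then 0.67, 0.60, 0.48, 0.56 and 0.65, beside 0.22 over all genes.

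Ribosomal proteins are the parts that the members help to assemble. Of 78 cytosolic ribosomal protein genes, 0 were called in either direction, with a median of 0.14 and a range from -0.21 for RPS27 to 0.37 for RPS2. With edgeR's adjusted p alone, 60 (76.9%) were higher and 2 lower, beside 33.8% and 33.5% of all genes. With library totals alone 6 were called higher, beside 27.3% of all genes, and the median was 0.36 where that of all genes was 0.22. In the MYC network, 16 genes, 3 (18.8%) rose and 5 (31.2%) fell, with a median of -0.30, beside 17.7% and 18.4% of all genes. MXD1, MXD3, MXD4, MXI1 and MNT bind MAX as repressors. MXD3 rose by 1.12 and the other 4 fell, MXI1 by 1.23, MNT by 1.21, MXD4 by 0.97 and MXD1 by 0.57. MYCL, a MYC family gene and not one of these repressors, also fell, by 1.05, at 1.10 to 3.28 CPM over the libraries. MYCBP, a MYC-binding protein, rose by 1.04. MAX, the partner of MYC, had a log2 fold change of -0.45 (edgeR adjusted p = 1.29e-08) and was not called. The list's median was -0.08 with library totals alone, with 4 higher and 4 lower. All 15 cell division genes rose (median 1.77), MCM3 by 2.25 and MCM2 by 1.98, and their summed level was 591 to 614 CPM in control, 635 to 869 in OIM and 2307 to 2379 in bFGF. The part of cell division in the members' rise was not tested.

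**Figure D5:**
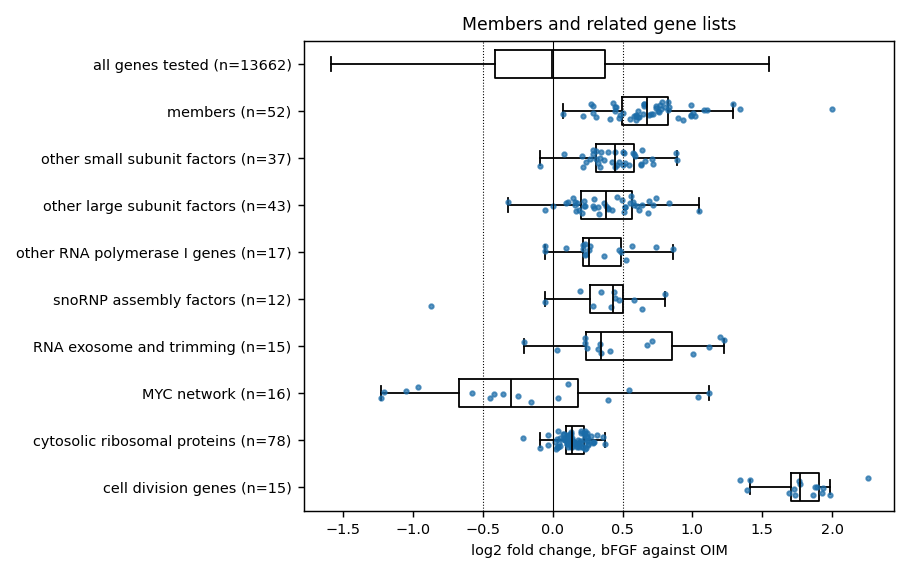
Log2 fold changes in bFGF against OIM of the members and of the related lists, 1 point a gene, with the median of each list. The median is 0.67 in the members, 0.45 in the other small subunit factors, 0.14 in the cytosolic ribosomal proteins (0.36 with library totals alone) and 1.77 in the cell division genes.

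The members with and without CACGTG were also counted apart in bFGF against OIM. Of the 10 with the motif 5 were called higher (median 0.59), and of the 42 without it 34 were (0.67). Of 1249 tested genes with the motif, 239 (19.1%) were called higher, near the 17.7% of all genes.

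Exons of 19 members overlapped those of another annotated gene, 17 on the opposite strand and 2 on the same strand, and the sources used here do not say whether counting used strand, so reads there may be shared. Of these 19, 18 were called higher (median 0.74), and of the 33 without overlap 21 were (0.61), beside 17.7% of all genes. At PWP2, the antisense transcript LOC102157424 had 562, 558 and 531 estimated counts in control, 413, 420 and 431 in OIM and 175, 215 and 179 in bFGF, so it was lowest where PWP2 was highest. PWP2 itself was at 21.9 to 25.6 CPM in control, 23.9 to 27.4 in OIM and 40.7 to 46.2 in bFGF.

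Circular RNAs from member loci mostly had few counts. There were 13 at 7 loci, of which 11 had under 10 counts over all libraries. The series holds 6179 circular RNAs and 19535 genes, and the number per locus was not compared with that of other genes. Of the GNL3 circles, the one at chr13:34824030-34825924 had 41 counts over the control libraries, 47 over OIM and 20 over bFGF. Its bFGF libraries, at 7, 11 and 2, overlapped those of control, at 9, 17 and 15, and lay below those of OIM, at 17, 17 and 13. Of the WDR75 circles, the one at chr15:93992834-94001331 had 22 over control, 24 over OIM and 45 over bFGF, with bFGF libraries at 24, 14 and 7 that overlapped the others.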

How the data were processed

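RNA-seq counts of 9 PVIC libraries were used. The authors deposited estimated counts without normalization, in a table with whole numbers for genes and circRNAs and with 44.6% non-whole values for non-coding transcripts. The methods of the study name a poly-A kit, Cutadapt and STAR on susScr11, while the labels and the submitters' processing notes name a kit that depletes ribosomal RNA, Trimmomatic, HISAT2 and StringTie on Sscrofa11.1. The counting program, its strand setting and its treatment of reads with several sites are not given in the sources used here, so paralogs and overlapping genes may share reads. The 19 columns without a name were not used.

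Gene counts, all whole numbers, were filtered with filterByExpr (13662 genes), scaled by TMM (factors 0.937 to 0.967 in control and OIM, 1.10 to 1.11 in bFGF) and tested in edgeR 4.0.16 (R 4.3.3) with the quasi-likelihood test on 3 groups and 6 residual degrees of freedom. The p-values were adjusted across every gene tested by the Benjamini-Hochberg method. The script was checked on simulated counts. The common biological coefficient of variation was 0.0602. Levels are CPM on TMM library sizes. Per-kilobase values used RefSeq exon lengths, and promoter windows were read with pysam 0.24.0.

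Groups came from the labels. The members and lists were chosen with earlier results of these data known. All members may be named, and values in every library are given for MYC and for the largest and smallest change per role group in bFGF against OIM. From each pathway list, at most 2 called genes per direction are named. MAX, MYCL, MXD1, MXD4, the cell type markers and genes given as an exception or as the ends of a range were named after their values were seen. Same-numbered replicates did not deviate together (correlations from -0.032 to 0.0035), so they were not paired. Alternatives were DESeq2 1.42.0, other scalings, filters and fold limits, 2-group fits, a replicate block, leaving out each library and, added after the data were seen, libraries thinned to equal depth.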

Additional observations from a re-analysis of the deposited data

How the results depend on the processing

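In bFGF against OIM, the members called higher numbered 38 to 42 when each library was left out in turn, and in bFGF against control 40 to 43. Of all genes, 16.8% to 18.6% and 18.3% to 19.6% were called higher. Of the 39 and 43 calls, 38 and 39 were present in all 9 of these fits. POLR1C was called in 3 of them, and its value over the 9 ranged from 0.45 to 0.56. In bFGF against control, POLR1B, RRP9 and UTP15 fell below the limit without control replicate 2, POLR1B without bFGF replicate 1 or 3, and NOB1 without control replicate 1 or 3 or bFGF replicate 3. In bFGF against OIM, MYC, BOP1 and BRIX1 passed it without OIM replicate 2, BOP1 without bFGF replicate 1 and RRP9 without OIM replicate 3. With library totals alone the members' median was 0.89 in bFGF against OIM and 0.98 in bFGF against control, where the median of all genes was 0.22 and 0.21. The members stood 0.68 and 0.78 above it, as with TMM. A change of scaling shifts all genes nearly alike, so this distance could hardly change and does not test the scaling. With library totals alone 49 and 50 members were called higher, beside 27.3% and 28.8% of all genes. The higher share of all calls was 68.8% and 68.1%, against 49.0% and 48.5%. Without a fold limit 51, 9 and 51 members passed in bFGF against OIM, OIM against control and bFGF against control, and with a limit of 1 the counts were 7, 0 and 11, where 8.9%, 0.461% and 9.8% of all genes were called higher. The sign of NOP10 in bFGF against control turned to 0.20 with library totals alone, and ranged from -0.083 to 0.017 when each library was left out. With the replicate block, 38, 0 and 43 members were called, POLR1C alone being lost in bFGF against OIM. Of all genes, 17.7%, 1.43% and 18.8% were called higher in that fit. DESeq2 gave 39, 0 and 43, beside 17.8%, 1.66% and 19.3% of all genes called higher. Thinned libraries gave 39, 0 and 42, beside 18.0%, 1.49% and 19.1%. The lowest count of a member in a library was 176, and each group has 3 libraries. The cause of these changes was not tested.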
